A study of Mus musculus with 8 samples.

Results

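The genes described here are Nfe2l2, which encodes the transcription factor NRF2, Keap1, which encodes the protein that holds NRF2 in check, and 8 genes long used as readouts of NRF2: Nqo1, Hmox1, Txnrd1, Srxn1, Osgin1, G6pdx, Pgd and Me1. They were taken by symbol from the count table, and each of the 10 matched 1 of its 21899 genes. The cells were mesenchymal stem cells from the femoral bone marrow of mice. They spent 48 h either with ellagic acid (EA) at 10 µM, a polyphenol of berries and nuts, or with DMSO, its solvent, which is the control here. Both conditions had 4 poly(A) RNA libraries, called 1 to 4, with 14112519 to 17390200 counted reads per library. The labels give no strain, age or sex of the mice and do not give the origin of the replicate libraries (animals, cultures or repeat preparations). The p-values therefore reflect only how far the libraries differ, possibly for technical reasons.

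In resting cells KEAP1 binds NRF2 and hands it to the CUL3 ubiquitin ligase for degradation. Electrophiles and oxidants modify cysteines of KEAP1, NRF2 then builds up, pairs with a small MAF protein and binds antioxidant response elements near genes of detoxification, haem breakdown, thiol reduction and NADPH supply. Control of NRF2 is thus largely at the protein level, which RNA counts do not measure. BACH1 competes with NRF2 for the same elements and is known above all as a repressor of Hmox1.

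Of the labelled cells' 11 markers, 5 were called higher and 2 lower in EA by the edgeR test with TMM scaling described below. Among all tested genes 33.1% were called higher and 34.2% lower. In CPM of library totals, Pdgfrb was at 203 to 232 in control and 436 to 477 in EA, and Pdgfra at 119 to 190.2 and 542 to 569. Vcam1 was at 299 to 406 and 168 to 196, and Ly6a at 29.8 to 42.5 and 9.48 to 12.0. Cd44 was not called with TMM scaling, though its groups did not overlap in CPM of library totals, at 525 to 623 and 392 to 422. Calls of the markers under other scalings are not given here. Thy1 was nearly absent and not tested, with 12 reads in the 4 control and 7 in the 4 EA libraries. Eng was low but called higher with TMM scaling, though its groups overlapped in CPM of library totals, at 1.64 to 3.17 in control and 2.47 to 3.68 in EA. Markers of other marrow cells were scarce. Of 11 macrophage markers 8 were under 1 CPM in every library, among them the pan-leukocyte gene Ptprc at up to 0.460 CPM. Their summed level was 67.5 to 84.5 CPM in control and 52.5 to 56.4 in EA, but its main parts moved in opposite directions. Cd14 was at 33.3 to 41.3 CPM in control and 7.81 to 9.35 in EA, and Lyz2 at 31.7 to 42.2 and 43.2 to 46.3. Control library 4 stood apart from the other control libraries. Read counts of library pairs differed from sampling noise by a chi-square per gene of 8.35 to 16.7 for the pairs that held it and of 5.49 to 6.01 for the other control pairs. EA library 4 also differed most from its group, with 6.62 to 7.7 for its pairs and 2.79 to 5.36 for the other EA pairs.

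The promoters are shown first because the same element recurs in genes that moved in different directions. Windows from 250 bases before to 50 after a start site were available from RefSeq (build GRCm38.p6) for 9 of the 10 genes, 13 windows in all, and Hmox1 had none. They were searched on both strands for a loose form of the core of the antioxidant response element, TGANNNNGC, in which N is any base. The search also covered the fuller form TGANTCAGC, which contains TGANTCA, the element of AP-1 factors. Matches to TGANNNNGC are called core matches here. The core was found in 9 of the 13 windows and in 41.3% of all 32851 RefSeq windows. The fuller form was found in 3 of the 13, those of Srxn1, Osgin1 and Me1, and in 1.19% of all windows. The stretches below end just before the start site for Srxn1 (chr2:152105359-152105523, plus strand) and Osgin1 (chr8:119437017-119437146, plus strand), and run through base 3 of the transcript for Me1 (chr9:86695912-86696014, minus strand). That of Nfe2l2, shown because its product binds the element, starts 250 bases upstream (chr2:75704793-75704913, minus strand). Capitals mark each match to TGANNNNGC on either strand, and each line reads 5′ to 3′ on the strand of the gene.
Srxn1: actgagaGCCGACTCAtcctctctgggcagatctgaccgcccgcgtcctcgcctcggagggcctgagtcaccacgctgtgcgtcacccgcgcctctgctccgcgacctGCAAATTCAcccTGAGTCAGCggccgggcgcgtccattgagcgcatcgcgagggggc
Osgin1: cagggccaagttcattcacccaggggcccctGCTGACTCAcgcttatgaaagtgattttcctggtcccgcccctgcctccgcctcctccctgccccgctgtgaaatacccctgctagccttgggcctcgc
Me1: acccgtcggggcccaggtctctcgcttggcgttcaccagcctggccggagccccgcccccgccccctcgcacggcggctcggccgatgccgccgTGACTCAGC
Nfe2l2: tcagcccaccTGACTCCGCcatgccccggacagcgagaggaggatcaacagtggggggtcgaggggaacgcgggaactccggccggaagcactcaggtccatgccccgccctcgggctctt

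The fuller form lay from base −45 to base −37 in Srxn1, counted from the start site at base 1, from base −99 to base −91 on the opposite strand in Osgin1, and across the start site in Me1, from base −6 to base 3. Nfe2l2 held only the core, as TGACTCCGC, from base −240 to base −232. The Srxn1 stretch also held 2 further core matches, TGAGTCGGC and TGAATTTGC on the opposite strand. Keap1, G6pdx, Txnrd1 and Pgd had core matches without the fuller form, though not in every window of Txnrd1 and Pgd. The Nqo1 window had neither, and sequence outside the windows was not searched. A match is only a run of letters, and no binding was measured here.

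**Figure D1:**
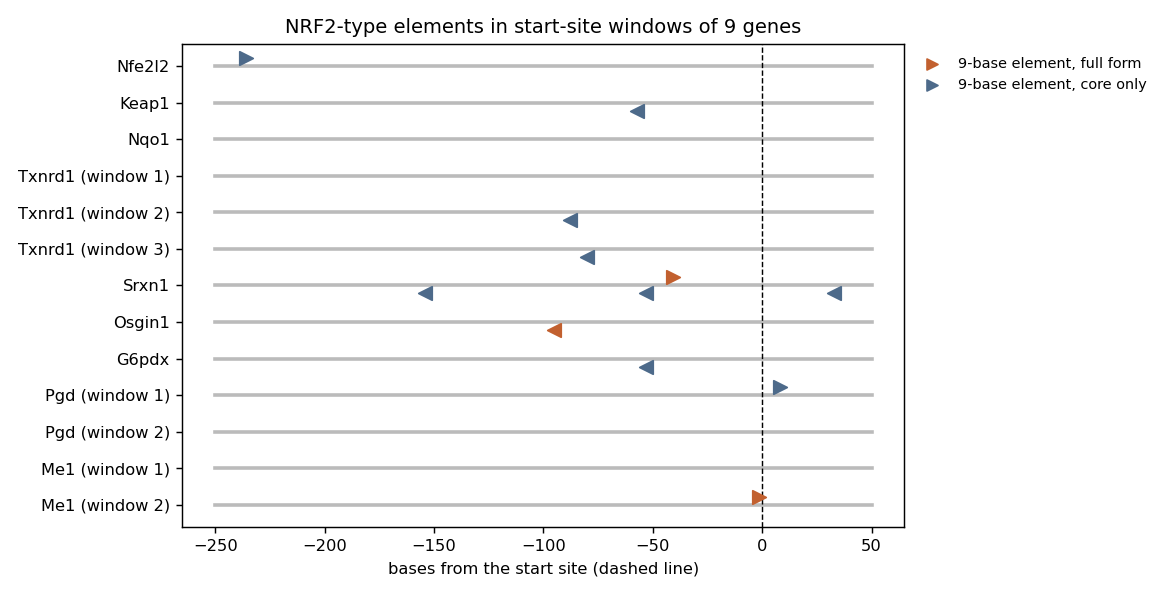
Positions of element matches (arrowheads, pointing right for the strand of the gene and left for the opposite strand) in the start-site windows of 9 genes, with distance from the start site in bases on the x axis. Orange marks the fuller form TGANTCAGC, seen in Srxn1, Osgin1 and Me1, and blue marks matches to TGANNNNGC alone.

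Comparing EA with DMSO asks what the cells' transcripts looked like at the end of the exposure. Hmox1 and Srxn1 rose 3.13-fold and 2.39-fold, while Nfe2l2, Keap1, Nqo1 and Osgin1 fell by 0.61, 0.43, 0.28 and 0.84 on the log2 scale. Txnrd1 fell by 0.17 with TMM scaling, under which its call depended on single libraries. The NADPH-forming enzyme genes G6pdx, Pgd and Me1 were higher by 0.26, 0.24 and 0.20, and their direction reversed when libraries were scaled by their totals. In all, 5 of the 10 genes were called higher and 5 lower (edgeR quasi-likelihood test with TMM scaling, Benjamini-Hochberg adjustment over the 11777 tested genes, threshold 0.05). Of all tested genes, 67.2% were called, 33.1% higher and 34.2% lower. No test compared the share among the 10 genes with this background. In CPM with TMM scaling, groups did not overlap for 9 of the 10 genes, 5 higher and 4 lower in EA. The shares over all tested genes were 60.6%, 29.9% and 30.7%. The median log2 fold change was 0.01 for the 10 genes and −0.02 for all tested genes.

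Scaling decided the count of higher genes. TMM factors, which set libraries to a common scale on the assumption that most genes do not change, lay between 1.13 and 1.14 for control and between 0.878 and 0.885 for EA. With library totals 2 of the 10 genes were higher and 6 lower, against 16.5% and 61.1% of all tested genes (77.6% called). With upper-quartile factors 2 were higher and 5 lower, against 24.0% and 45.3% (69.4% called). With limma on log2 FPKM 2 were higher and 6 lower, against 16.3% and 60.9% (77.2% called) at a pseudocount of 1 and 16.3% and 61.0% (77.3% called) at 0.1. Library totals took the median of all tested genes to −0.38 and upper-quartile factors to −0.17. Hmox1 and Srxn1 were called higher, and Nfe2l2, Keap1, Nqo1, Txnrd1 and Osgin1 lower, under each of these scalings. CPM values below use TMM scaling unless the library total is named, and FPKM values use library totals and gene length. Folds are those of the edgeR fit with TMM unless said otherwise, and a fall given as a bare number is on the log2 scale.

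**Figure D2:**
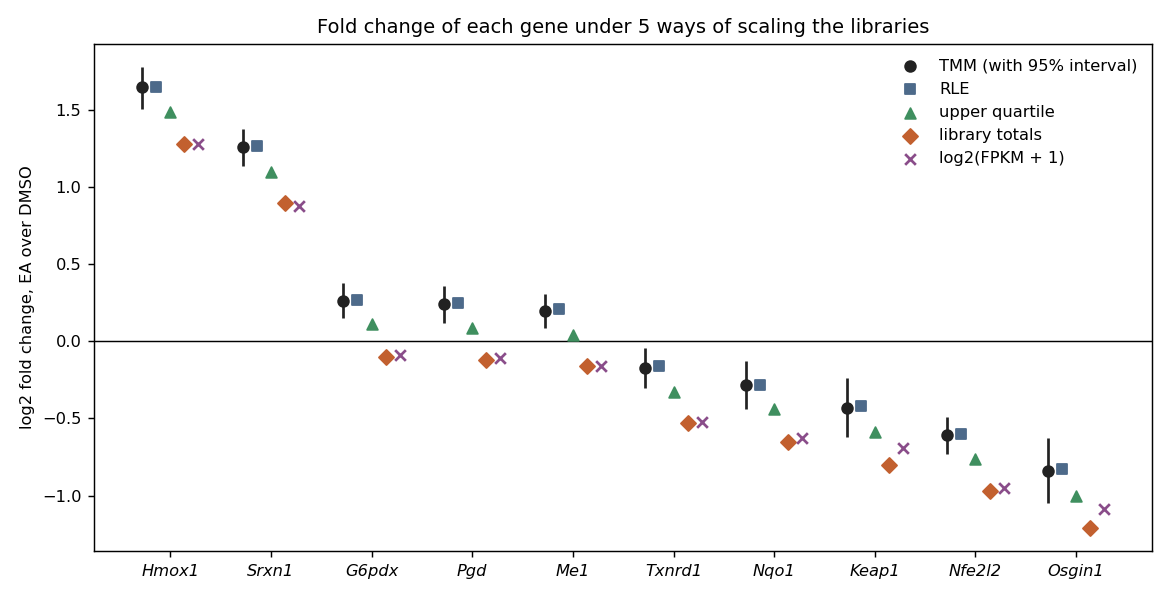
Log2 fold change of EA over DMSO (y axis) for each of the 10 genes under 5 ways of scaling the libraries, with the 95% interval of the edgeR fit drawn on the TMM value. Hmox1 and Srxn1 stay above 0 and Txnrd1, Nqo1, Keap1, Nfe2l2 and Osgin1 below 0, whereas G6pdx, Pgd and Me1 cross 0, from 0.26, 0.24 and 0.20 with TMM to −0.10, −0.12 and −0.16 with library totals.

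Nfe2l2 (chromosome 2, 75505857 to 75534985, build GRCm39, minus strand) was at 198, 199.6, 196 and 206 CPM in control libraries 1 to 4 and at 124, 126, 143 and 133 CPM in EA. Each EA library lay below each control library. The log2 fold change was −0.61 ± 0.06 (SE derived from the F test; 95% interval −0.73 to −0.49; edgeR adjusted p = 1.02e-08), lower in 4 of 4 EA libraries. With library totals it was −0.97.

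Keap1 (chromosome 9, 21141026 to 21150657, minus strand), the adaptor that presents NRF2 to the ligase, was at 35.6, 36.5, 36.2 and 33.0 CPM in control and at 26.9, 23.0, 24.0 and 31.0 in EA. The groups did not overlap, but EA library 4 came close to control library 4. The log2 fold change was −0.43 ± 0.09 (edgeR adjusted p = 0.000272), and it ranged from −0.52 to −0.37 when single libraries were left out. The transcripts of NRF2 and of its inhibitor were thus both lower. There were 5.67 ± 0.385 reads of Nfe2l2 per read of Keap1 in control and 5.08 ± 0.772 in EA (SD, n = 4). The groups overlapped in this ratio, which no scaling of libraries can alter, and the difference did not exceed the spread (log2 difference −0.17; exact two-sided permutation p = 0.257, 0.343 adjusted over 4 ratios).

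Hmox1 (chromosome 8, 75820249 to 75827217, plus strand) encodes haem oxygenase 1, which opens haem into biliverdin, carbon monoxide and iron. It stood at 194, 209, 181 and 226 CPM in control and at 635, 616, 635 and 652 in EA. Even the lowest EA library was far above the highest control library. Its log2 fold change was 1.65 ± 0.06 (95% interval 1.51 to 1.78; edgeR adjusted p = 3.82e-15), above that of 95.8% of tested genes, and it was 1.28 with library totals. Per length, Hmox1 had the highest level of the 10 genes in both groups, at 131 ± 12.0 FPKM in control and 319 ± 6.91 in EA. Macrophages are a known source of Hmox1. Of their markers, Lyz2 was higher and Cd14 lower in EA, as given above, and their part in the Hmox1 result was not tested. In RNA from whole cultures, a change in the share of a cell type and a change in RNA per cell cannot be told apart.

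Nqo1 (chromosome 8, 108114857 to 108129838, minus strand) encodes a quinone reductase and is the most used NRF2 readout, and it is also a target of the aryl hydrocarbon receptor. It was at 101, 111, 98.1 and 129.8 CPM in control and at 86.1, 91.9, 91.8 and 90.8 in EA. All EA libraries were below all control libraries, and control library 4 was the highest by a clear margin. In log2 terms the change was −0.28 ± 0.08 (edgeR adjusted p = 0.00245). Without control library 4 it was −0.19, a change of 1.14-fold against 1.22-fold, and still past the threshold (adjusted p = 0.00602).

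Hmox1 was called higher and Nqo1 lower, and the ratio of their reads within a library, which scaling cannot alter, shows how far they shifted against each other. There were 1.93, 1.89, 1.85 and 1.74 reads of Hmox1 per read of Nqo1 in control and 7.38, 6.69, 6.91 and 7.18 in EA. The ratio was 3.80-fold higher in EA without overlap (exact two-sided permutation p = 0.0286, which is the lower bound with 70 assignments, or 0.0571 adjusted over 4 ratios, which misses 0.05). The pair was chosen with earlier values of both genes known.

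**Figure D3:**
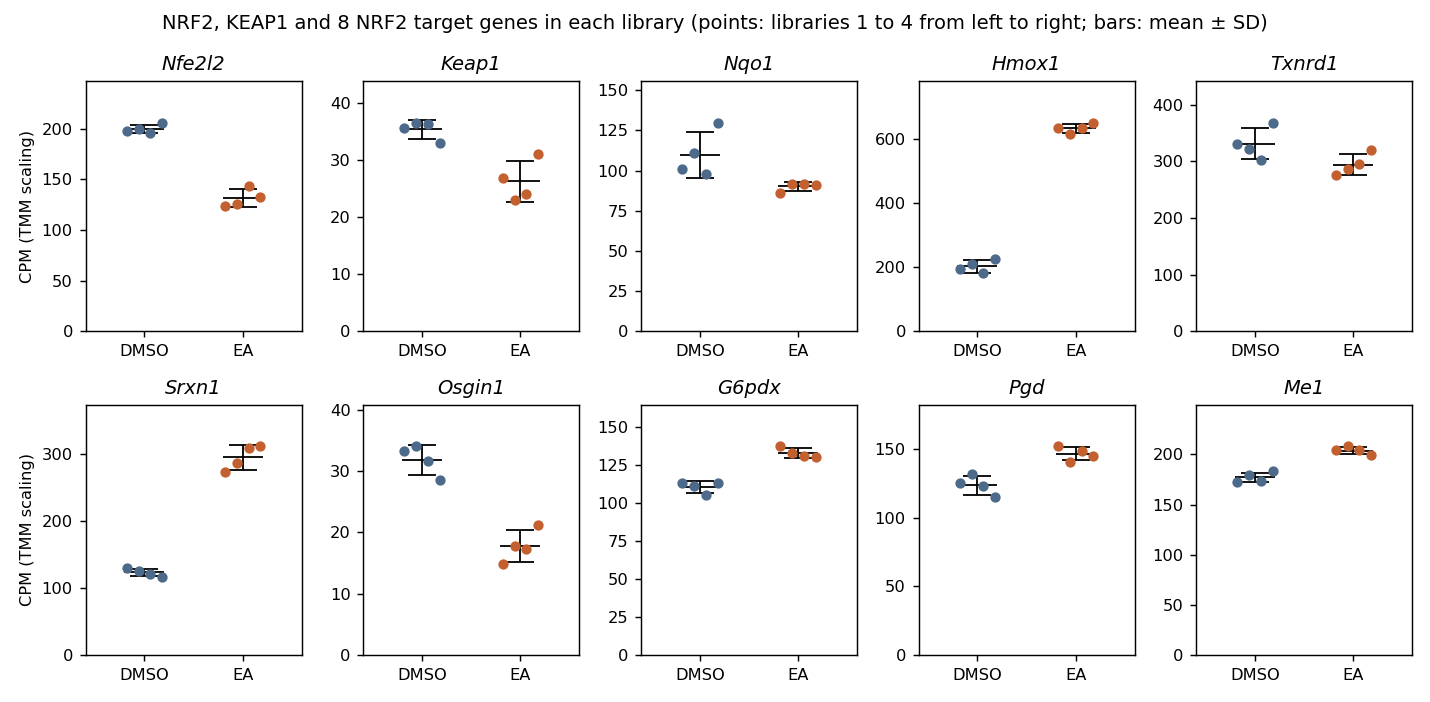
CPM with TMM scaling (y axis, from 0) of each of the 10 genes in the 4 DMSO and 4 EA libraries (points, libraries 1 to 4 from left to right), with mean ± SD as bars. Hmox1 and Srxn1 stand clear of control, the EA libraries of Nfe2l2 and Osgin1 lie below control, and only Txnrd1 overlaps between groups.

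In the thioredoxin branch, Txnrd1 (chromosome 10, 82669785 to 82733546, plus strand) encodes the cytosolic reductase that uses NADPH to reduce thioredoxin. It was at 330.2, 322, 303 and 368 CPM in control and at 276, 286, 295 and 319.8 in EA. EA library 4 lay above control library 3, so the groups overlapped with TMM scaling. In FPKM they did not, at 48.7 to 58.5 in control and 34.3 to 39.6 in EA. The fitted change was −0.53 with library totals and −0.33 with upper-quartile factors (edgeR adjusted p = 1.78e-07 and 7.92e-05). With TMM it was −0.17 ± 0.06 (edgeR adjusted p = 0.0232). It was not past the threshold without control library 4 (−0.11, adjusted p = 0.0698), EA library 1 (−0.14, 0.10) or EA library 2 (−0.15, 0.0749). Txnrd1 shares part of its locus with Eid3 on the same strand, which had 108 reads in control and 78 in EA.

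Srxn1 (chromosome 2, 151947436 to 151953296, plus strand) encodes sulfiredoxin, which restores peroxiredoxins that peroxide has overoxidised. It was at 129.8, 126, 121 and 117 CPM in control and at 274, 287, 309 and 312 in EA, with a wide gap between the groups. On the log2 scale the rise was 1.26 ± 0.06 (95% interval 1.14 to 1.38; edgeR adjusted p = 1.22e-13), above that of 93.5% of tested genes. Per read of Txnrd1 there were 0.376 ± 0.0378 reads of Srxn1 in control and 1.01 ± 0.0314 in EA (2.69-fold; exact two-sided permutation p = 0.0286, 0.0571 adjusted over 4 ratios).

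Osgin1 (chromosome 8, 120160863 to 120172995, plus strand) encodes an oxidative stress-induced growth inhibitor. It had the largest fall of the 10 genes, from 33.3, 34.0, 31.6 and 28.5 CPM in control to 14.8, 17.7, 17.2 and 21.2 in EA. The groups did not overlap. The log2 fold change was −0.84 ± 0.10 (95% interval −1.05 to −0.63; edgeR adjusted p = 3.23e-07), and only 11.3% of tested genes had a lower one. Osgin1 and Srxn1, which carry the same 9 bases TGAGTCAGC in their windows, therefore moved in opposite directions.

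The 3 NADPH-forming genes moved little. G6pdx (chromosome X, 73453089 to 73472800, minus strand) encodes glucose-6-phosphate dehydrogenase, which opens the pentose phosphate pathway. It was at 105 to 113 CPM in control and 129.9 to 137 in EA (log2 fold change 0.26 ± 0.06, edgeR adjusted p = 0.000274, but −0.10 and adjusted p = 0.105 with library totals). Its locus overlaps Ikbkg on the opposite strand, which had 2789 reads in control and 2709 in EA, and since the strand setting of the counting is not given in the sources used here, reads of the shared part cannot be told apart. No read was counted for G6pd2, its close retrogene copy, which allows up to 0.173 to 0.213 CPM of the library total (3 counts per library, counting error only).

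Pgd (chromosome 4, 149234448 to 149251228, minus strand) encodes the next NADPH-forming enzyme of that pathway. It was at 115 to 132 CPM in control and 141 to 152 in EA (0.24 ± 0.06, edgeR adjusted p = 0.000927, but −0.12 and adjusted p = 0.0678 with library totals). The ratio of Pgd to G6pdx reads was 1.12 ± 0.0776 in control and 1.10 ± 0.0345 in EA and overlapped between groups (exact two-sided permutation p = 0.714, 0.714 adjusted over 4 ratios). Me1 (chromosome 9, 86463424 to 86578006, minus strand) encodes cytosolic malic enzyme. It was at 173 to 183 CPM in control and 199 to 208 in EA (0.20 ± 0.05, edgeR adjusted p = 0.00204), and with library totals it was called lower (−0.16, adjusted p = 0.00650).

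**Figure D4:**
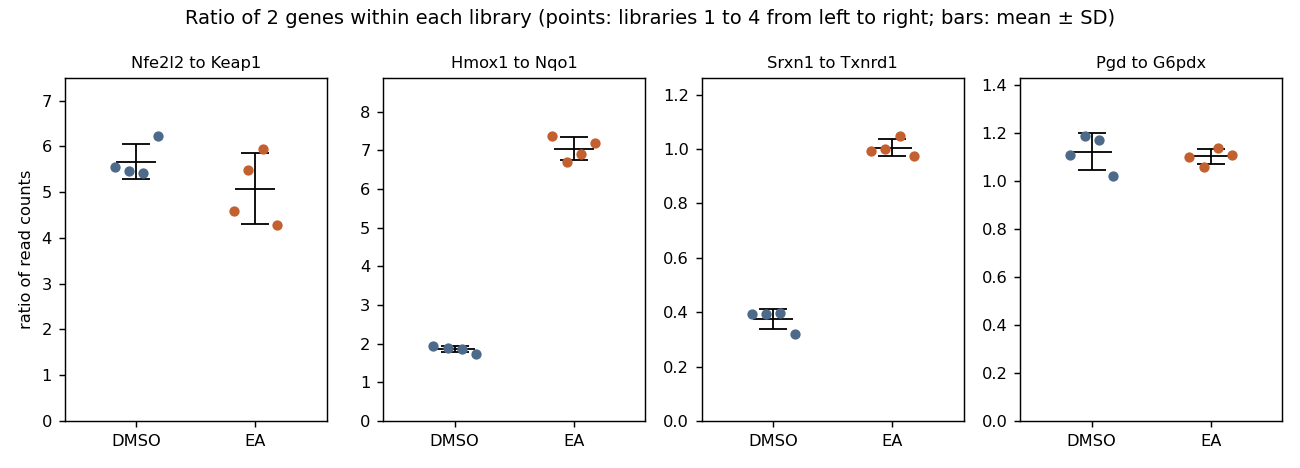
Ratio of the read counts of 2 genes in the same library (y axis, from 0), for the 4 DMSO and 4 EA libraries (points, libraries 1 to 4 from left to right), with mean ± SD as bars. The Hmox1 to Nqo1 and Srxn1 to Txnrd1 ratios are apart between groups, at 1.74 to 1.93 against 6.69 to 7.38 and 0.319 to 0.398 against 0.976 to 1.05, while the other ratios overlap.

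Levels per length gave an order of the 10 genes. In control it ran from Hmox1 at 131 FPKM through Nqo1 at 80.1, Nfe2l2 at 59.7, Txnrd1 at 52.9, Me1 at 52.2, Srxn1 at 49.6, G6pdx at 40.7, Pgd at 21.7 and Osgin1 at 13.5 to Keap1 at 8.53. The ranges of Txnrd1, Me1 and Srxn1 overlapped one another there. In EA, Srxn1 was next after Hmox1 at 92.3 ± 5.73 FPKM, and Nfe2l2 was at 30.5 ± 2.02, below G6pdx at 38.0 and Txnrd1 at 36.6, whose ranges overlapped each other. Osgin1 at 5.84 ± 0.858 and Keap1 at 4.92 ± 0.656 closed the order with overlapping ranges.

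Over the 8 libraries the tested genes whose log2 CPM followed Nfe2l2 most closely were Mmp16, Tmem74 and Atf3 (Pearson r of 0.9982, 0.9981 and 0.9971). Mmp16, a membrane-bound matrix metalloproteinase gene, went from 108 ± 4.29 to 56.2 ± 5.61 CPM and Atf3, a stress-induced transcription factor gene, from 19.8 ± 2.30 to 5.04 ± 1.37. With 2 groups of 4 libraries such a correlation mostly mirrors the group difference, and 2124 tested genes reached r = 0.9.

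Of 14 tested genes in a list of 16 partners and regulators of NRF2, 6 rose and 3 fell (42.9% and 21.4%, against 33.1% and 34.2% of all tested genes; median 0.05). With library totals 5 were higher and 8 lower (35.7% and 57.1%, against 16.5% and 61.1%; median −0.31), and with a filter of CPM above 1 in all 8 libraries 5 were lower. Maff and Mafk, small MAF partners with which NRF2 binds DNA, rose 4.21-fold and 3.95-fold. Maff was at 16.2 to 21.1 CPM in control and 71.2 to 88.9 in EA (log2 fold change 2.08 ± 0.09, edgeR adjusted p = 3.16e-14), and Mafk at 34.5 to 41.5 and 138 to 178 (1.98 ± 0.08, adjusted p = 5.54e-14). Picked once their values were known, Mafg rose 1.42-fold and the competing repressor gene Bach1 2.95-fold, from 30.0 ± 2.70 to 88.5 ± 0.880 CPM (adjusted p = 5.63e-14), and its relative Bach2 rose 2.60-fold. The repressor best known for silencing Hmox1 and Hmox1 itself were thus both higher at the RNA level.

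Among the falling regulators, Nfe2l1, which encodes the NRF2 relative NRF1 of the proteasome response, went from 1604 to 1701 CPM in control to 888 to 1017 in EA (−0.82 ± 0.05, edgeR adjusted p = 2.78e-11). It was the most abundant gene of the NRF family, at 345 FPKM in control against 59.7 for Nfe2l2. Fyn, a kinase tied to nuclear export of NRF2, fell by 0.59 on the log2 scale (adjusted p = 3.25e-07). The other relatives Nfe2 and Nfe2l3 had 21 and 27 reads in the 4 control libraries and were not tested. Chosen after their values were seen, the ligase scaffold gene Cul3 was at 114 ± 14.2 and 119 ± 4.50 CPM (adjusted p = 0.438). Sqstm1, whose product p62 binds KEAP1, was at 1339 ± 134 and 1203 ± 86.8 CPM (adjusted p = 0.0532), and neither passed the threshold with TMM scaling. Under library totals both were called lower, Cul3 at −0.30 and Sqstm1 at −0.52 (edgeR adjusted p = 0.00110 and 8.28e-07).

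**Figure D5:**
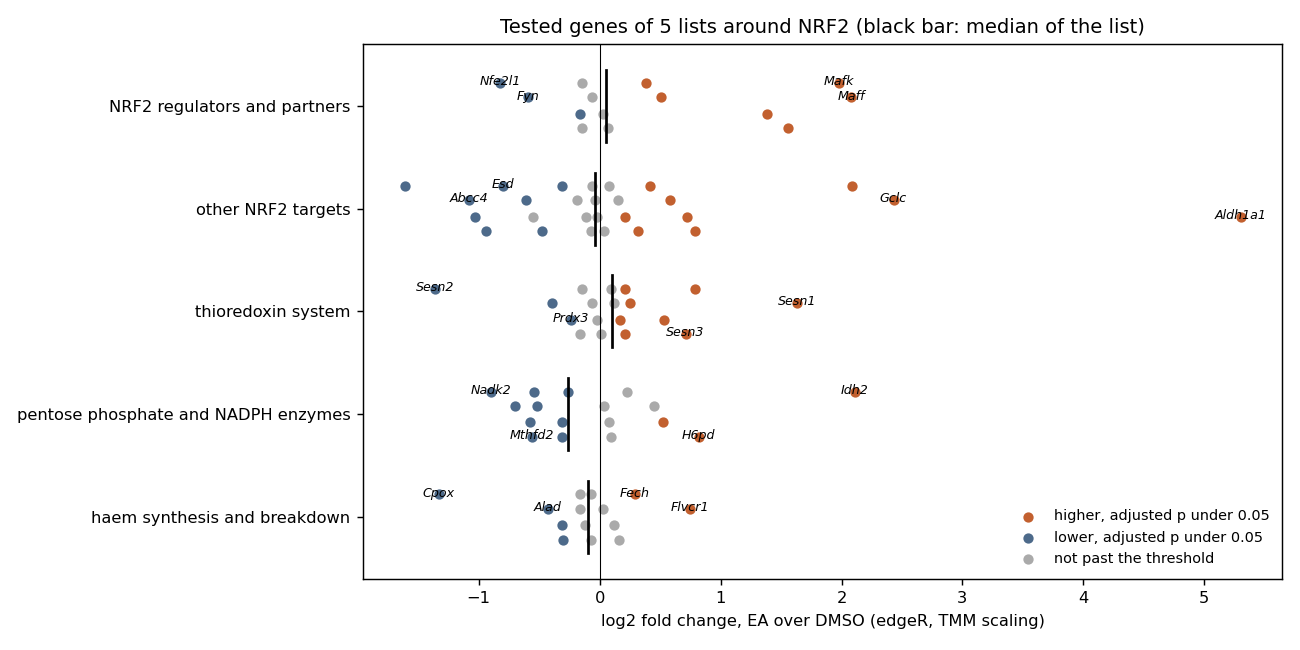
Log2 fold change of EA over DMSO (x axis, edgeR with TMM scaling) for each tested gene of 5 lists around NRF2, coloured by whether it passed the threshold, with the list median as a black bar. Each of the 5 lists holds called genes on both sides of 0, as did all tested genes (33.1% higher, 34.2% lower), and medians lie between −0.26 and 0.11.

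Of 27 tested genes in a list of 33 other NRF2 targets, 9 rose and 8 fell (33.3% and 29.6%; median −0.04), close to the 33.1% and 34.2% of all tested genes. With library totals 6 were higher and 19 lower (22.2% and 70.4%, median −0.40), against 16.5% and 61.1% of all tested genes. Aldh1a1, a retinal dehydrogenase gene, rose 39.4-fold, from 2.72 to 4.46 CPM in control to 124 to 163 in EA (5.30 ± 0.13, edgeR adjusted p = 3.07e-16). Gclc, for the catalytic subunit of glutamate-cysteine ligase, was at 72.2 to 93.5 CPM in control and 437 to 462 in EA. The falling genes included the export pump gene Abcc4 (−1.08 ± 0.10, adjusted p = 1.40e-08) and Esd, an esterase gene, at 296 to 386 and 181 to 201 CPM (−0.80 ± 0.07, adjusted p = 6.43e-09). Chosen after their values were seen, Ugdh rose 4.26-fold and Gclm 1.72-fold, whereas the cystine transporter gene Slc7a11 fell 1.92-fold (adjusted p = 0.000214).

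In the rest of the thioredoxin system 8 of 18 tested genes rose and 3 fell (44.4% and 16.7%, median 0.11). Among all tested genes the shares were 33.1% and 34.2%. But with library totals 3 were higher and 13 lower (16.7% and 72.2%, median −0.25), against 16.5% and 61.1% of all tested genes. The sestrin genes, which encode stress-induced regulators of peroxiredoxins and of mTORC1, moved apart. Sesn1 rose 3.09-fold to 135 to 154 CPM and Sesn3 1.64-fold to 248 to 269.6 CPM. Sesn2 fell 2.57-fold, from 131 to 142 CPM in control to 49.8 to 57.2 in EA (edgeR adjusted p = 7.64e-14). Prdx3, a mitochondrial peroxiredoxin gene, fell by 0.24 on the log2 scale (adjusted p = 0.00173). Txn1, the thioredoxin that TXNRD1 reduces, was chosen after its value was seen and was at 158 ± 3.78 and 156 ± 10.6 CPM (adjusted p = 0.794). Under library totals Txn1 was called lower (−0.38, edgeR adjusted p = 5.99e-06), where the median of all tested genes was also −0.38.

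Around G6pdx, Pgd and Me1, 3 of 17 tested pentose phosphate and NADPH genes rose and 9 fell (17.6% and 52.9%, median −0.26). Among all tested genes the shares were 33.1% and 34.2%. With library totals 2 were higher and 12 lower (11.8% and 70.6%, median −0.63), against 16.5% and 61.1% of all tested genes. With limma voom 5 were higher. Idh2, the mitochondrial isocitrate dehydrogenase that forms NADPH, rose 4.33-fold, from 65.0 to 87.0 CPM in control to 305 to 347 in EA (edgeR adjusted p = 2.72e-14). H6pd, the glucose-6-phosphate dehydrogenase of the endoplasmic reticulum, rose 1.76-fold (adjusted p = 5.10e-09). Nadk2, a mitochondrial NAD kinase gene, fell by 0.90 and Mthfd2, a mitochondrial folate enzyme gene, by 0.56 on the log2 scale (adjusted p = 6.88e-08 and 3.11e-07). Chosen after their values were seen, the pentose phosphate genes Pgls, Rpe and Rpia fell by 0.26, 0.54 and 0.70 on the log2 scale. Tkt, chosen likewise, was at 128 ± 3.77 and 136 ± 4.80 CPM (edgeR adjusted p = 0.188), but was called lower with library totals (−0.28, adjusted p = 0.000108).

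Of 14 tested haem genes other than Hmox1, 2 were higher and 4 lower (14.3% and 28.6%, median −0.10). Among all tested genes the shares were 33.1% and 34.2%. With library totals 1 was higher and 12 lower (7.14% and 85.7%, median −0.46), against 16.5% and 61.1% of all tested genes. Cpox, a late enzyme of haem synthesis, fell 2.51-fold, from 69.7 to 92.9 CPM in control to 28.8 to 36.9 in EA (edgeR adjusted p = 3.53e-09). Alad, an early one, fell 1.35-fold (adjusted p = 0.00201). Flvcr1, a haem exporter gene, rose 1.68-fold (adjusted p = 2.34e-07). Fech, which inserts iron, was 1.22-fold higher (adjusted p = 0.000337), but at −0.07 with library totals.

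Several of the 10 genes have close relatives. Hmox2, the constitutive haem oxygenase gene, was at 22.9 ± 3.03 and 24.8 ± 1.87 CPM (edgeR adjusted p = 0.319), beside the 3.13-fold rise of Hmox1. Under library totals Hmox2 was called lower (−0.25, adjusted p = 0.0316). Nqo2 fell by 0.40 on the log2 scale (adjusted p = 0.00700), the same direction as Nqo1. Osgin2 was 1.28-fold higher (adjusted p = 0.00497) while Osgin1 fell, but the Osgin2 groups overlapped and its log2 fold change was −0.01 with library totals. Txnrd3 fell by 0.39 (adjusted p = 0.00346), and Txnrd2 was at 8.47 ± 0.512 and 7.60 ± 0.803 CPM (adjusted p = 0.280). Under library totals Txnrd2 was called lower (−0.52, adjusted p = 0.000993). Me2 fell by 0.31 (adjusted p = 0.00559), and Me3 was at 3.06 ± 0.789 and 4.18 ± 0.328 CPM (adjusted p = 0.0529). The differences between a gene and its relative were not tested.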

How the data were processed

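Poly(A) RNA libraries from 4 control and 4 EA samples were sequenced. The authors deposited a read count for each gene, made after trimming with cutadapt 1.15 and alignment with HISAT2 2.0.5 to GRCm39, per the submitters' processing notes. Which tool counted the reads, with which annotation and strand setting, is not given in the sources used here. FPKM values, also deposited by the authors, matched count over gene length and column total to within a relative 3.56e-14. Near-identical genes may share reads.

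The test was edgeR 4.0.16 (R 4.3.3), with TMM factors, filterByExpr, robust quasi-likelihood fitting and no covariates, and Benjamini-Hochberg adjustment over the 11777 genes kept of 21899. The common coefficient of biological variation was 7.78%. Each SE is the log2 fold change over the root of F and uses spread shared across genes. Ratios of reads were compared by exact permutation. On simulated counts for 11777 genes, edgeR recovered 186 of 200 changed genes with 7 false calls, DESeq2 1.42.0 184 with 10 and limma 3.58.1 voom 187 with 7. These simulations kept most genes unchanged, so they do not cover the choice of scaling.

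The 10 genes, the lists and the ratios were chosen with earlier results of these data known. Named from each list were up to 2 rising and 2 falling called genes with the smallest p, and for Nfe2l2 the 3 most correlated genes. Alternatives were other scalings, filters and tests, FPKM with pseudocounts of 1 and 0.1, a threshold of 0.01, a replicate block and leaving out each library.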

Additional observations from a re-analysis of the deposited data

Results flagged for a closer look

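Among 28 groups of 4 values checked, for the 10 genes and the 4 ratios, 2 had 1 library far from the other 3, where chance gives about 1 in 20 groups. Both were control library 4. Its Nfe2l2 to Keap1 ratio was 6.24, with the next control library at 5.55. Its Srxn1 to Txnrd1 ratio was 0.319, with the next at 0.392. Without it, the log2 difference was −0.12 for the first ratio and 1.35 for the second, against −0.17 and 1.43 with all libraries.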

How the results depend on the processing

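For the 10 genes and for all tested genes, scaling was the choice, of those run, that moved a count of calls by over 1.5 times. The number of the 10 genes called higher was 5 with TMM and 2 with upper-quartile factors, library totals, and limma on log2 FPKM with either pseudocount. Over all tested genes, 3893 higher and 4027 lower with TMM became 1940 and 7196 with library totals, 1924 and 7170 with log2(FPKM + 1), and 1922 and 7179 with log2(FPKM + 0.1). With library totals, log2(FPKM + 1) and log2(FPKM + 0.1) in turn, G6pdx reversed to −0.10, −0.09 and −0.10, Pgd to −0.12, −0.11 and −0.12, Me1 to −0.16 in all 3, Fech to −0.07, −0.06 and −0.07, and Osgin2 to −0.01, −0.01 and −0.02. Counts in the lists also moved with scaling, and 2 moved with other choices: falling NRF2 regulators and partners from 3 to 5 with CPM above 1 in all 8 libraries, and rising pentose phosphate and NADPH genes from 3 to 5 with limma voom. Of 190 values of the 10 genes under alternatives, 174 kept direction and call, 9 reversed direction, and 7 kept direction but were no longer past the threshold. Among the reversed values, those of Me1 were called lower, whereas those of G6pdx and Pgd were not past the threshold.

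Same-numbered libraries deviated together with correlations of −0.0215 to 0.0266, and differently numbered ones with −0.105 to 0.0972. These values cannot decide whether libraries were paired by origin, which the labels do not give. With a replicate block 3834 genes were higher and 3960 lower, and all 10 genes kept their calls. Paired by number, the ratios' log2 differences were −0.17 (Nfe2l2 to Keap1), 1.93 (Hmox1 to Nqo1), 1.43 (Srxn1 to Txnrd1) and −0.02 (Pgd to G6pdx), in an exact sign-flip test of 4 pairs that cannot go below p = 0.125. Leaving out single libraries gave log2 differences from −0.25 to −0.09, 1.90 to 1.95, 1.35 to 1.46 and −0.07 to 0.01. With 4 libraries a group, small differences such as that of Txnrd1 with TMM scaling were near the limit of what could be called.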

Other observations

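Control library 4 was the highest or the lowest of the 4 control libraries for 9 of the 10 genes, a count made after the values were seen. Every gene has a highest and a lowest library in each group, and no share over all tested genes was computed. EA library 1 was highest in its group for 2 of the 10 genes and lowest for 5, and EA library 4 highest for 5 and lowest for 2. Control library 4 was highest for 5 genes, with Nqo1 at 129.8 against 98.1 to 111 CPM, Txnrd1 at 368 against 303 to 330.2 and Hmox1 at 226 against 181 to 209. It was lowest for 4, among them Osgin1 at 28.5 against 31.6 to 34.0 CPM and Srxn1 at 117 against 121 to 129.8.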
